A study of Mus musculus with 4 samples.

Results

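The Myc, Max and Mxd network is a set of transcription factors that pair with one another through a shared helix-loop-helix and leucine zipper domain. Its 10 genes examined here are Myc, Mycn, Mycl, Max, Mxd1, Mxd3, Mxd4, Mxi1, Mnt and Mlx, chosen by gene symbol from the 35976 symbols in the count tables. Every one of the 10 had a row in the tables, and all 10 passed the filter on low counts that left 20389 genes to test. Bulk RNA-seq measured their expression in mouse thymocytes sorted as CD24+, TCRb-, CD4+ and CD8a+. Such cells are at the double-positive (DP) stage, when both coreceptors are on the surface and a mature T cell receptor is not yet displayed. Cxxc1 KO mice carried Cxxc1 F/F with Lck-cre, and control mice carried Cxxc1 +/+ with the same Lck-cre, so the recombinase was present in both genotypes. Cxxc1 encodes a DNA-binding subunit of the SETD1 histone H3 lysine 4 methyltransferases, and its zinc finger recognises CpG without methylation. The Lck promoter drives the recombinase in the T lineage. Each genotype had 2 libraries. Neither age nor animal is given in the labels. The p-values therefore speak to the spread among these 4 libraries, part of which could be technical.

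Max is the common partner of the network. Myc, Mycn and Mycl pair with Max, bind the E-box sequence CACGTG and raise transcription of genes for growth, ribosome production and metabolism. Mxd1, Mxi1, Mxd3, Mxd4 and Mnt also pair with Max, bind the same element and recruit Sin3 corepressor complexes that carry histone deacetylases. Mlx is a Max-like protein that pairs with Mxd1, Mxd4 and Mnt and with the glucose-responsive factors MondoA (Mlxip) and ChREBP (Mlxipl). In the thymus, Myc is known for the burst of growth and division that follows pre-TCR and Notch signals, after which it declines in resting DP cells.

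Counts assigned to genes totalled 36243182 and 33544428 in KO 1 and KO 2, and 12150508 and 34820446 in control 1 and control 2. Levels below are read counts divided by TMM-scaled library sizes (CPM), and a floor of 3 counts corresponds to 0.0843 to 0.252 CPM, for counting error only. Cxxc1 itself had 35.7 and 39.4 CPM in the KO libraries and 111 and 53.5 CPM in the controls, a log2 fold change of -1.12 ± 0.34 that did not pass the test (adjusted p = 0.199, edgeR), and without control replicate 1 it was -0.51. The DP markers Cd4, Cd8a, Rag1 and Dntt were present in all 4 libraries. Marker genes of B cells and dendritic cells summed to at most 10.7 and 2.24 CPM in the KO libraries, and to at most 9.33 and 5.30 CPM in the controls. Myeloid, epithelial, innate and mature single-positive markers summed to 11.9 to 97.5 CPM per list in the KO libraries and 5.13 to 74.5 CPM in the controls. Of those 4 lists 2 genes rose, Il7r and Gzma. The granzyme gene Gzma was at 34.9 and 49.7 CPM in the KO libraries and 11.3 and 9.40 CPM in the controls, and its call ended without either KO library and with library totals only. In bulk samples, fewer cells of a type and less RNA per cell cannot be told apart.

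The E-box that these factors bind also occurs near the start sites of some of the network's own genes, and those stretches are shown for that reason. RefSeq promoter windows of 300 bases on GRCm38.p6 were matched by symbol for 9 of the 10 genes, all but Myc, and gave 11 windows because Mxi1 has 3. CACGTG, which reads the same on both strands, was in the windows of 4 genes, Max, Mnt, Mxd4 and Mlx. It was in 8.62% of the 18432 windows of tested genes. Each is printed 5′ to 3′ on the gene's strand with CACGTG in capitals and 20 bases on either side.
Max: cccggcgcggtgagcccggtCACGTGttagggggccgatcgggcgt
Mnt: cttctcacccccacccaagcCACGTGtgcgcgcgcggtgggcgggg
Mxd4: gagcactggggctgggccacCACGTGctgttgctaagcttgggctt
Mlx: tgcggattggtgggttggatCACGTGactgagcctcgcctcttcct
The Max stretch is chr12:76962226-76962271 on the minus strand, and its E-box begins 3 bases before the start site on which the RefSeq window is built. Positions here are counted from each window's own start site, which need not be the end of the GENCODE gene span given further on. For Max the whole stretch lies upstream of that span. RefSeq gene spans differ again. The RefSeq span of Max ends at 76962323 and that of Mlx begins at 101086707, so both hold the whole stretch. That of Mnt begins at 74830806, inside the Mnt stretch, and that of Mxd4 ends at 34187710, outside the Mxd4 stretch. The Mnt stretch is chr11:74830781-74830826 on the plus strand, with the motif beginning 123 bases before the start site. The Mxd4 stretch is chr5:34187904-34187949 on the minus strand, with the motif beginning 219 bases before the start. The Mlx stretch is chr11:101087230-101087275 on the plus strand, with the motif beginning 40 bases before the start. The windows of Mycn, Mycl, Mxd1, Mxd3 and Mxi1 held no such letters. CpG, the dinucleotide that the Cxxc1 protein binds when unmethylated, occurred 14 to 49 times per window across the network, against a median of 15 and quartiles of 5 and 26 in the windows of tested genes, and only the Mycn window, at 14, was below that median. These matches are descriptions of sequence, and binding was not measured here.

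Between the genotypes, Myc was the one network gene that passed the test, and it was higher in the Cxxc1 KO. The other 9 did not pass, with Mycn and Mxd3 lower in both KO libraries by point estimate, and Max, Mxd1, Mxd4, Mnt and Mlx within 1.21-fold of control. Of the 10 genes, 1 was called at an adjusted p below 0.05 in edgeR's quasi-likelihood test, and 0.451% of all tested genes were called (0.27% higher and 0.181% lower). In DESeq2, which gave Mycl no adjusted p, the count was again 1, against 5.02% of the genes it tested. KO and control libraries did not overlap for 5 of the 10, 2 higher and 3 lower, which is close to the 46.8% of all tested genes in which they did not overlap. The median log2 fold change over the 10 was -0.08, beside -0.04 over all tested genes. The plot of levels by library shows every gene in every sample.

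**Figure D1:**
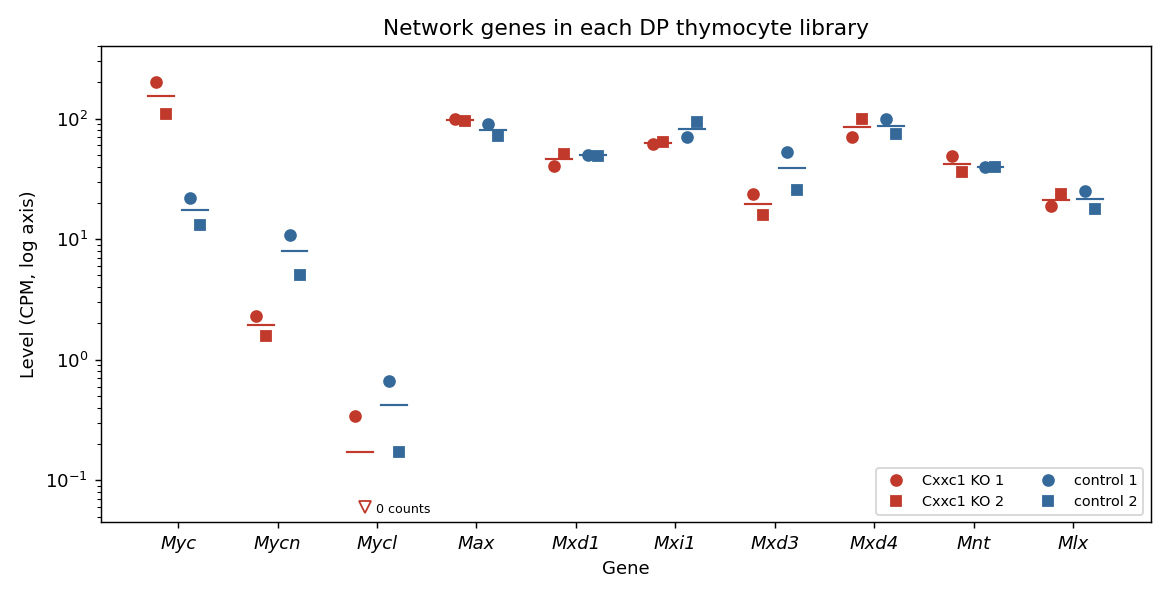
Level of each network gene in CPM (log axis) in the 2 Cxxc1 KO libraries (red) and the 2 control libraries (blue), with circles for replicate 1, squares for replicate 2 and a line at each genotype's mean. Myc lies at 109 and 201 CPM in the KO libraries and at 12.98 and 21.9 CPM in the controls, while the genotypes lie close together for Max, Mxd1, Mxd4, Mnt and Mlx.

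Myc (ENSMUSG00000022346, chromosome 15, 61985391 to 61990374, plus strand) encodes c-Myc, the activating member that is usually present in dividing cells. It had 6989 and 3878 counts in KO 1 and KO 2, against 260 and 450 in control 1 and control 2. As levels these are 200.6 and 109 CPM in the KO libraries and 21.9 and 12.98 CPM in the controls. Both KO libraries were far above both controls, and the lower KO library was 4.98-fold above the higher control. Within a genotype the 2 libraries differed by 1.84-fold in the KO and 1.68-fold in the controls, with replicate 1 the higher in each. Myc averaged 155 ± 64.8 CPM in KO and 17.4 ± 6.28 CPM in control cells (SD, n = 2 each). The log2 fold change was 3.16 ± 0.38, with a 95% interval of 2.32 to 4.01, an 8.96-fold rise (adjusted p = 0.0156, edgeR), and 17th in order of p among the tested genes. The call ended without KO replicate 1, at 2.69 (adjusted p = 0.0653), and held without each of the other libraries, at 2.82 to 3.58.

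Other stage-linked genes moved beside Myc. The 6 marker genes of double-negative (DN) thymocytes, the stage before DP, summed to 2600 and 1230 CPM in the KO libraries and 710 and 440 CPM in the controls, with KO 1 the highest, as it was for Myc. Most of that sum was Notch1, at 2313 and 1084 CPM in the KO libraries and 653 and 387 CPM in the controls. Of those 6, 1 rose, Il2ra, the interleukin-2 receptor alpha chain gene, at 200.6 and 97.0 CPM in the KO libraries and 9.84 and 9.03 CPM in the controls. Cd44, an adhesion receptor gene singled out once its values were known, went the other way by point estimate, at 11.7 and 15.003 CPM in the KO libraries and 30.3 and 35.2 CPM in the controls (-1.30 ± 0.32, adjusted p = 0.124 in edgeR and 0.0142 in DESeq2). DESeq2 called 5 of the 6, 4 higher and 1 lower, beside 5.02% of the genes it tested. The list median was 1.92, and none of its genes was at 0 in all libraries. The 10 DP markers summed to 6290 and 8958 CPM in the KO libraries and 12414 and 15979 CPM in the controls, and 3 of them fell, Dntt, Cd4 and Cd8a, where edgeR called 0.451% of all tested genes. DESeq2 called 5 of the 10, while edgeR called 1 with library totals only and 0 without KO replicate 1. The part of cell stage in the level of Myc was not tested. Globin and other erythroid genes were low, at 38.0 and 26.2 CPM summed in the KO libraries and 8.66 and 14.0 CPM in the controls, with 1 of 6 called higher, Hba-a1, a list in which 0 were called without KO replicate 1, and the globin genes Hba-a1, Hba-a2, Hbb-bs and Hbb-bt at 0 in both controls.

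Pvt1, a long noncoding RNA gene next to Myc on chromosome 15 that is often amplified with it in tumours, did not pass the test. Pvt1 had 155 and 84 counts in the KO libraries and 88 and 142 in the controls. Its level averaged 3.40 ± 1.48 CPM in KO and 5.75 ± 2.33 CPM in control cells (SD, n = 2 each), with overlapping libraries and a log2 fold change of -0.75 ± 0.64 (adjusted p = 0.682, edgeR). Its direction was therefore not established, and its 95% interval of -2.20 to 0.71 lies below that of Myc.

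Mycn (chromosome 12, 12936093 to 12941914) encodes N-Myc, which can stand in for c-Myc and is known from progenitors and neural tissue. Its counts were 80 and 56 in the KO libraries and 128 and 176 in the controls, which are 2.30 and 1.57 CPM against 10.8 and 5.08 CPM. Both KO libraries lay below both controls, opposite in direction to Myc. The 2 controls differed from each other by 2.12-fold. The log2 fold change was -2.02 ± 0.65, with a 95% interval of -3.48 to -0.57, and did not pass the test (adjusted p = 0.219, edgeR; unadjusted p = 0.0117). It depended on the controls. Leaving out control replicate 1 gave -1.39, and leaving out control replicate 2 gave -2.47 and a call (adjusted p = 0.0239).

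Mycl (chromosome 4, 122995652 to 123002485), which encodes L-Myc and is known in dendritic cells, was near the limit of detection. It had 12 and 0 counts in KO 1 and KO 2, against 8 and 6 in control 1 and control 2. The 2 genotypes overlapped, and the fitted log2 fold change of -1.25 ± 2.32 has an interval from -6.47 to 3.98, so no direction can be read at this depth.

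Max (chromosome 12, 76937269 to 76962201), the shared partner, varied by 1.40-fold from the lowest to the highest of the 4 libraries. Its level was 100.02 and 95.8 CPM in the KO libraries and 90.5 and 71.5 CPM in the controls. The KO libraries were just above the controls, the lower KO library by 1.06-fold over the higher control. The log2 fold change was 0.27 ± 0.23 (adjusted p = 0.674, edgeR), and its 95% interval of -0.25 to 0.80 lies wholly below that of Myc.

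Among the repressor partners, Mxd3 (chromosome 13, 55325168 to 55329823) had the lowest log2 fold change. Mxd3 encodes a Mad protein that, unlike its relatives, is known from cycling cells in S phase. It had 23.5 and 15.7 CPM in the KO libraries and 52.6 and 25.8 CPM in the controls. Both KO libraries were below both controls, though KO 1 was only 0.910 times control 2, and the 2 controls differed by 2.04-fold. The log2 fold change was -0.99 ± 0.39 (95% interval -1.88 to -0.11) and did not pass the test (adjusted p = 0.31, edgeR). Without control replicate 1 it was -0.40, against -1.42 when control replicate 2 was left out, a fit in which it was called (adjusted p = 0.0429). Mxd3 shares 105 exon bases, 4.43% of its exon length, with Prelid1 on the opposite strand, a mitochondrial lipid transfer gene at 132 and 105 CPM in the KO libraries and 153 and 111 CPM in the controls. No source used here says whether counting was strand-specific, and reads in those bases cannot be told apart.

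Mxi1 (chromosome 19, 53310518 to 53375810), also called Mad2, antagonises Myc and is known as a hypoxia-induced gene. Its level was 62.0 and 64.0 CPM in the KO libraries and 69.8 and 93.6 CPM in the controls. The KO libraries were nearly equal and both below the controls, which differed by 1.34-fold. The log2 fold change was -0.38 ± 0.24 (adjusted p = 0.552, edgeR). Mxi1 shares 194 exon bases, 2.84% of its exon length, with Gm10197 on the opposite strand, a symbol without counts here.

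Mxd1 and Mxd4 encode Mad proteins that rise as many cell types stop dividing and differentiate. Mxd1 (chromosome 6, 86647042 to 86669161) had 40.8 and 50.9 CPM in the KO libraries and 50.3 and 49.3 CPM in the controls. Mxd4 (chromosome 5, 34173883 to 34187720) had 70.5 and 99.0 CPM in the KO libraries and 99.8 and 74.7 CPM in the controls. For both genes the genotypes overlapped, with log2 fold changes of -0.12 ± 0.26 for Mxd1 (adjusted p = 0.905, edgeR) and -0.04 ± 0.26 for Mxd4 (adjusted p = 0.971, edgeR). Their 95% intervals, -0.70 to 0.46 and -0.64 to 0.56, leave room for changes of that size in either direction. The sign for Mxd4 flipped with library totals only, to 0.0054, so neither gene has a direction here. Mxd4 shares 514 exon bases, 6.06% of its exon length, with Gm42846 on the opposite strand, a symbol without counts here.

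Mnt (chromosome 11, 74830920 to 74845725), a broadly expressed repressor that competes with Myc for Max, had 48.8 and 35.96 CPM in the KO libraries and 39.6 and 39.7 CPM in the controls. The KO libraries lay on either side of the controls, which were almost equal. The log2 fold change was 0.10 ± 0.27 (adjusted p = 0.93, edgeR).

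Mlx (chromosome 11, 101087277 to 101092207) had 18.9 and 23.7 CPM in the KO libraries and 24.97 and 17.7 CPM in the controls, with overlapping genotypes. Its log2 fold change was 0.0029 ± 0.34 (adjusted p = 0.999, edgeR), with a 95% interval of -0.76 to 0.76, and its sign flipped with RLE scaling, to -0.021. Mlx shares 385 exon bases, 19.3% of its exon length, with Psmc3ip, a meiotic recombination gene on the opposite strand that had 22.8 and 16.6 CPM in the KO libraries and 19.8 and 16.9 CPM in the controls, so part of either signal could belong to the other.

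**Figure D2:**
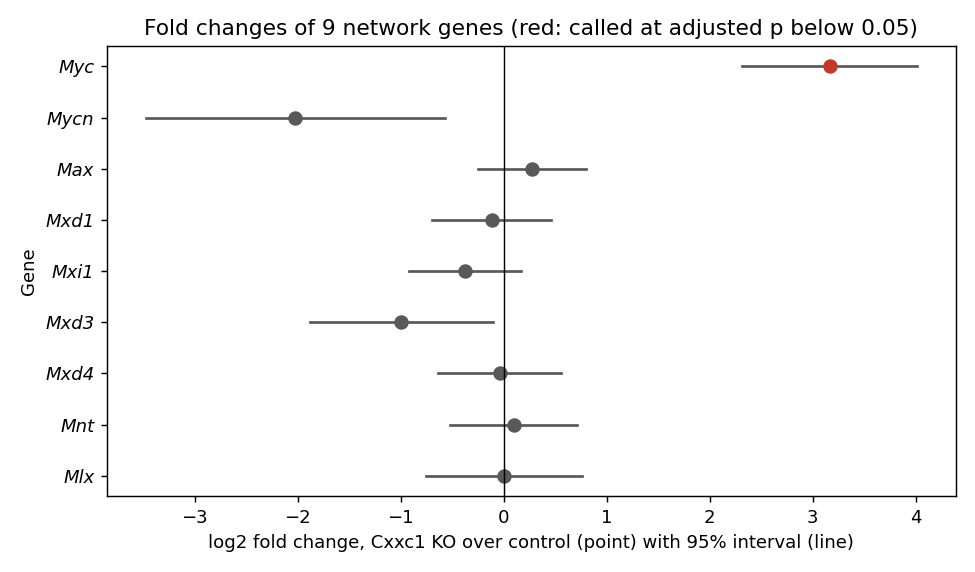
Log2 fold change, Cxxc1 KO over control, of 9 network genes (points) with the 95% interval of the edgeR fit (lines). Mycl is left out because its interval runs from -6.47 to 3.98. Myc, in red, is the one called gene, at 3.16, and the intervals of Mycn and Mxd3 lie below 0 although neither passed the adjusted test.

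The 4 genes with an E-box in their promoter window, Max, Mxd4, Mnt and Mlx, had log2 fold changes between -0.04 and 0.27. The 5 genes whose windows held none, Mycn, Mycl, Mxd1, Mxd3 and Mxi1, had values between -2.02 and -0.12. Myc had no window and is in neither group. Mycl was near the limit of detection, and the values of Mxd1, Mxd4, Mnt and Mlx changed sign in fits with a library left out. These 9 values are a description with no test.

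Levels of different genes were compared per length, as CPM per kilobase of annotated exon (GENCODE M21), which is approximate where cells use only some of the exons. In KO cells Myc had the highest level per length of the network, 57.0 ± 23.8 CPM per kb, followed by Max at 27.2 ± 0.833 (SD, n = 2 each). In control cells Max came first at 22.5 ± 3.72, and Myc was 8th of 10 by mean at 6.41 ± 2.31, with libraries that overlapped those of Mxd1, the 7th. Next in KO cells were Mlx, Mxd4, Mxi1, Mnt, Mxd3 and Mxd1, from 10.7 down to 6.48 CPM per kb, whose libraries overlapped from each neighbour to the next. Next after Max in control cells were Mxd3 at 16.6 ± 8.01, whose libraries overlapped those of Max, and then Mxi1, Mlx, Mxd4, Mnt and Mxd1, from 11.97 down to 7.04. Mycn and Mycl were 9th and 10th in both genotypes, at 0.587 and 0.0426 CPM per kb in KO cells and 2.40 and 0.105 CPM per kb in control cells.

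Set against its partner, Myc per length was 2.66 and 1.51 times Max in the KO libraries and 0.320 and 0.240 times Max in the controls. The 8 network members whose proteins pair with Max, from Myc to Mnt, were then summed per length in each library. Mga, a Max partner outside the network list, was not included, so the shares below are of these 8 genes only. Myc made up 62.4% and 48.2% of that sum in the KO libraries and 11.3% and 8.64% in the controls. Mxd1, Mxd3, Mxd4 and Mxi1 together made up 28.0% and 41.9% in the KO libraries and 71.9% and 73.001% in the controls. The summed level of these 4 was 33.1 and 34.9 CPM per kb in the KO libraries and 51.3 and 40.4 CPM per kb in the controls, while Myc, Mycn and Mycl summed to 74.6 and 40.6 in the KO libraries and 11.5 and 6.36 in the controls. The ratio of the 3 activating genes to the 4 Mxd family genes was thus 2.26 and 1.16 in the KO libraries and 0.224 and 0.158 in the controls. These are ratios of RNA levels, and protein was not measured here.

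**Figure D3:**
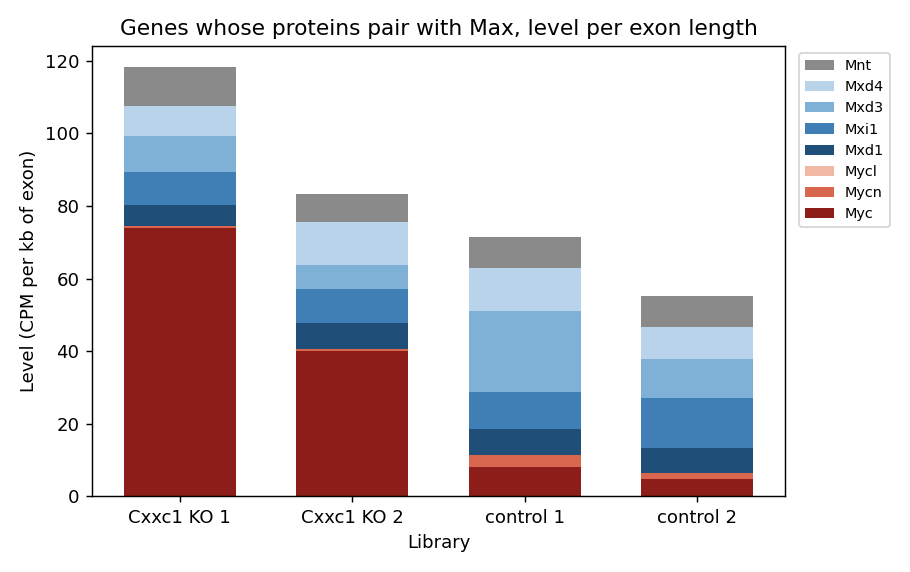
Level per exon length (CPM per kb) of the 8 network members whose proteins pair with Max, stacked for each library. The 2 Cxxc1 KO libraries are on the left and the 2 controls on the right, and the Max partner Mga is not included. Myc (dark red) makes up 62.4% and 48.2% of the stack in the KO libraries and 11.3% and 8.64% in the controls.

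Genes around the network were described as lists. The other partners and Myc-binding genes, Mga, Mlxip, Mlxipl, Zbtb17, Mycbp and Mycbp2, had 0 of 6 called by edgeR and likewise 0 by DESeq2. Their unadjusted p was below 0.05 in 0 of 6, with a median log2 fold change of 0.21. Mga, a large Max partner that works with a Polycomb complex, had 441 and 421 CPM in the KO libraries and 323 and 480 CPM in the controls, which overlap. Mycbp2, a ubiquitin ligase gene, had 450 and 510 CPM in the KO libraries and 340 and 427 CPM in the controls (log2 fold change 0.32 ± 0.23, adjusted p = 0.609, edgeR). Of 2 targets of MondoA and Mlx that were listed, 1 was called, where edgeR called 0.451% of all tested genes. Arrdc4, an arrestin-domain gene that limits glucose uptake, rose, and Txnip, its better known relative, did not pass the test. Arrdc4 had 26.3 and 42.4 CPM in the KO libraries and 3.19 and 6.09 CPM in the controls (2.86 ± 0.44, adjusted p = 0.0355, edgeR), a call that ended without either KO library. Txnip had 141 and 302 CPM in the KO libraries and 148 and 224 CPM in the controls.

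Genes that serve the network's proteins showed no calls. Of the 16 Sin3 and corepressor genes 0 were called, with a median of -0.05 and a range of -0.55 to 0.44. Ncor1, a nuclear corepressor gene, had 967 and 943 CPM in the KO libraries and 980 and 1083 CPM in the controls. Among the 14 coactivator genes 0 were called, with a median of -0.07. Ep400, a chromatin remodeller gene, had a log2 fold change of -0.02 ± 0.23. Of the 15 genes for stability of the Myc protein, 14 were matched and tested and 0 were called, with a median of 0.15. The largest in level was Huwe1, a ubiquitin ligase gene, with 1158 and 931 CPM in the KO libraries and 789 and 801 CPM in the controls (0.39 ± 0.23, adjusted p = 0.506, edgeR), and the phosphatase subunit gene Ppp2r5a had 0.10 ± 0.21. At an unadjusted p below 0.05, each of these 3 lists had 1 gene, where 13.9% of all tested genes had such a p, and DESeq2 called 0 in each.

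Textbook Myc-activated genes leaned upward without passing the test gene by gene. Of 36 tested, 33 had a positive log2 fold change, beside 47.6% of all tested genes, and the median was 0.72, beside -0.04 over all tested genes. None of the 36 was called by edgeR. At an unadjusted p below 0.05 there were 15, 14 higher and 1 lower, where 13.9% of all tested genes had such a p. DESeq2 called 7, 6 higher and 1 lower, beside 5.02% of the genes it tested. The libraries did not overlap for 18 higher and 1 lower of the 36, against 22.8% higher and 24% lower of all tested genes. The 2 with the highest levels were nucleolar protein genes. Npm1, nucleophosmin, had 772 and 590 CPM in the KO libraries and 355 and 366 CPM in the controls (0.92 ± 0.24, adjusted p = 0.139, edgeR). Ncl, nucleolin, had 2724 and 1264 CPM in the KO libraries and 1427 and 1281 CPM in the controls, so that KO 2 was not above the controls (0.56 ± 0.34, adjusted p = 0.53, edgeR).

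The 7 genes that DESeq2 called are named after their values were seen. The 6 higher ones were Npm1, the cyclin gene Ccnd2, the small nucleolar RNA-protein genes Nop58 and Fbl, the mitochondrial chaperonin gene Hspd1 and the purine synthesis gene Gart. Ccnd2 had 33.0 and 15.4 CPM in the KO libraries and 7.23 and 2.05 CPM in the controls, and Gart had 147 and 76.9 CPM in the KO libraries and 45.7 and 45.1 CPM in the controls. The lower one was E2f2, a cell-cycle transcription factor gene, with 173 and 124 CPM in the KO libraries and 407 and 241 CPM in the controls (-1.12 ± 0.30, adjusted p = 0.158 in edgeR and 0.00801 in DESeq2).

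The Myc-activated genes were highest in KO 1. Centred on each gene's mean of log2 CPM over the 4 libraries, the median gene of the list stood at 0.75 in KO 1 and -0.03 in KO 2, against -0.17 in control 1 and -0.50 in control 2. The 2 genotypes did not overlap, yet KO 2 was nearer to control 1 than to KO 1. Without KO replicate 1 the list median was 0.32, and without KO replicate 2 it was 1.07. Myc was also higher in KO 1 than in KO 2. This list was assembled with earlier results of these data known, so its direction is not independent evidence.

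Myc-repressed genes had 0 of 9 called by edgeR and 0 by DESeq2, a median of -0.41, and 3 at an unadjusted p below 0.05, 1 higher and 2 lower, beside 13.9% of all tested genes. Cdkn1b, which encodes the cell-cycle inhibitor p27, had 107 and 149 CPM in the KO libraries and 166 and 202 CPM in the controls (-0.52 ± 0.25, adjusted p = 0.395, edgeR), and Hbp1 had 39.0 and 52.6 CPM in the KO libraries and 39.3 and 82.3 CPM in the controls. Of the 9, 3 had a positive log2 fold change and 6 a negative one. Ndrg1, 1 of those 3 and named after its values were seen, was higher in both KO libraries. It had 32.5 and 26.3 CPM in the KO libraries and 11.6 and 15.3 CPM in the controls (1.12 ± 0.33, adjusted p = 0.191, edgeR). The list median turned positive, 0.22, without control replicate 2. Proliferation genes had 0 of 10 called, 0 at an unadjusted p below 0.05 and 0 by DESeq2, with a median of -0.26. Mki67, the gene of the Ki-67 antigen, had 2318 and 1766 CPM in the KO libraries and 2756 and 2243 CPM in the controls, which overlap, and Top2a, a topoisomerase gene of dividing cells, had 825 and 594 CPM in the KO libraries and 1157 and 839 CPM in the controls.

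Regulators known to act on the Myc gene in lymphoid cells had 2 of 16 called, both higher, and a median of 0.04, where 0.27% of all tested genes were called higher. DESeq2 called 3 of the 16, beside 5.02% of the genes it tested. An unadjusted p below 0.05 was found for 5, 4 higher and 1 lower, beside 13.9% of all tested genes. Notch3 had 408 and 262 CPM in the KO libraries and 91.1 and 71.7 CPM in the controls, and Il7r, the interleukin-7 receptor gene, had 30.6 and 21.9 CPM in the KO libraries and 1.009 and 0.260 CPM in the controls. Both calls ended without KO replicate 1. Notch1, which drives Myc in early thymocytes and was named after its values were seen, had a log2 fold change of 1.71 ± 0.39 (adjusted p = 0.107 in edgeR and 0.00012 in DESeq2). Smaller differences were seen for 2 other genes in that list, Rbpj and Ctnnb1, both also named after their values were seen. Rbpj had 91.6 and 83.8 CPM in the KO libraries and 73.3 and 88.6 CPM in the controls. Ctnnb1, beta-catenin, had 216 and 219 CPM in the KO libraries and 221 and 206 CPM in the controls.

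**Figure D4:**
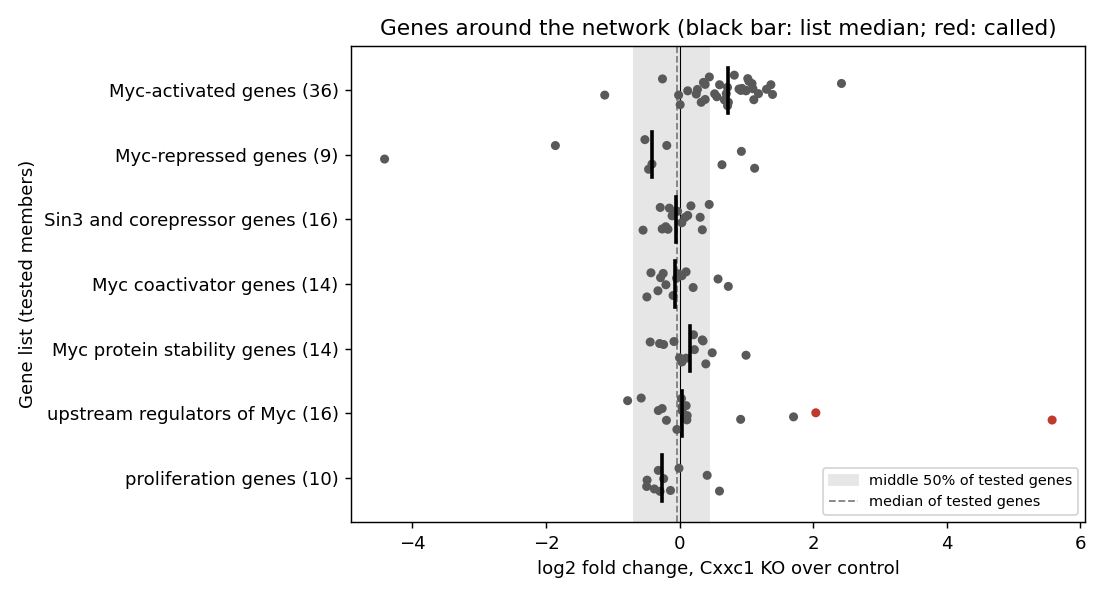
Log2 fold change, Cxxc1 KO over control, of each tested gene (points) in 7 lists around the network, with the list median as a black bar, called genes in red, and the middle 50% and median of all tested genes in grey. The median of the Myc-activated genes is 0.72, while those of the Sin3, coactivator and upstream lists lie within 0.08 of 0, and the 2 red points are Notch3 and Il7r.

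Leaving out each library in turn showed which statements rest on 1 library. Myc stayed between 2.69 and 3.58 in log2 fold change, Mycn between -2.47 and -1.39, Max between 0.11 and 0.45, Mxi1 between -0.57 and -0.15 and Mxd3 between -1.42 and -0.40, all without a change of sign. Mxd1, Mxd4, Mnt and Mlx each changed sign in at least 1 of the 4 fits.

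**Figure D5:**
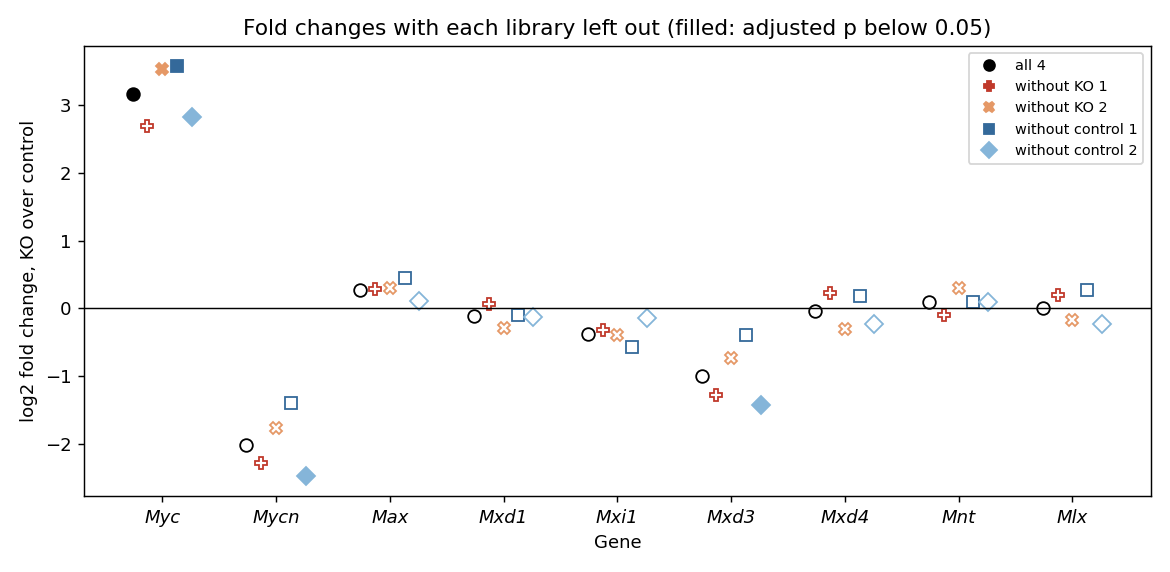
Log2 fold change, Cxxc1 KO over control, of 9 network genes in the fit of all 4 libraries (black circles) and with each library left out, filled where the adjusted p was below 0.05. Myc is open only without KO replicate 1, and Mycn and Mxd3 are filled only without control replicate 2.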

How the data were processed

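Per the labels' protocols, 10 ng of total RNA from the sorted thymocytes went into each SMART-seq Standard library. The deposited files hold raw counts per gene symbol, 1 file per library, and the file headers name a HISAT2 alignment. The submitters' processing notes name mm10 and, with no role, featureCounts 2.0.8, HISAT2 2.2.1, cutadapt 4.0 and edgeR 3.36.0. Annotation, strand setting and handling of multiply mapped reads were not given in the sources used here. PCR reads without molecular identifiers are not independent molecules.

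The deposited counts went into edgeR 4.0.16 under R 4.3.3 (filterByExpr with a minimum count of 10, TMM, quasi-likelihood test with genotype as the only term), two-sided and adjusted by Benjamini and Hochberg's method over 20389 genes. Genes were called at an adjusted p below 0.05. The standard error is the log2 fold change divided by the square root of F. DESeq2 1.42.0 was an alternative. Libraries left out were dropped with the tested genes kept. The script was tested on simulated data. No 2 libraries agreed within counting error: the smallest chi-square was 51.9 per degree of freedom. All 4 were therefore kept as separate.

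Gene coordinates and exon lengths are from GENCODE M21 on GRCm38, the assembly that mm10 names. The network members and the lists were chosen with earlier results of these data known. Named are the 10 members, Cxxc1, Pvt1, per list up to 3 called genes or else the 2 with the highest CPM, and the 5 genes most like Myc. Some genes that this rule names are not reported here. Double-negative libraries were not analysed here.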

Additional observations from a re-analysis of the deposited data

How the results depend on the processing

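The call of Myc held under 11 of 12 alternatives, with log2 fold changes of 2.69 to 3.58, and ended without KO replicate 1 (2.69, adjusted p = 0.0653). The number of network genes called was 1 under every alternative but 3, namely 3 with the replicate block (Myc, Mycn and Mxd3), and 0 to 3 with each library left out. Over all genes, 92 were called, against 920 with no filter on low counts, 234 at a mean of at least 5 CPM, 1030 in DESeq2, 997 by the likelihood ratio test, and 9 to 619 with each library left out. Cxxc1 passed with no filter (-1.09), in DESeq2 (-1.14), with the replicate block (-1.04) and without control replicate 2 (-1.56, adjusted p = 0.00874), and ranged from -1.56 to -0.51 with each library left out. Near-zero members changed sign, namely Mlx with RLE scaling (-0.021), at 5 CPM (-0.068), in DESeq2 (-0.0126) and within -0.23 to 0.27 with each library left out, Mxd4 with library totals only (0.0054) and within -0.30 to 0.22, Mnt within -0.10 to 0.30 and Mxd1 within -0.29 to 0.069. In each case the cause was not tested. The replicate numbers pair no samples by the labels. Deviations of same-numbered libraries correlated at 0.28 over 11018 genes. With 2 libraries per genotype, crossing the numbers gives -0.28 by construction, so this value cannot decide whether libraries were paired. The replicate block raised all calls to 1599. Of 36 Myc-activated genes, 13 were called with no filter, 7 in DESeq2, 7 by the likelihood ratio test and 17 with the block. None of them, 0, was called in the main fit. The same settings also raised the calls over all tested genes, from 92 of 20389 in the main fit to 1599 of 20389 with the block. Mycl had too few counts in every library, at most 12, to show any difference.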

Other observations

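The genes whose pattern over the 4 libraries was most like that of Myc were sought among 9252 other tested genes that averaged 10 CPM or more and had a count in every library. Likeness was the root mean square difference of log2 CPM centred over the 4 libraries, and predicted-gene and clone symbols were left out. The nearest was Arhgef10l, at a difference of 0.148, with 71.6 and 33.5 CPM in the KO libraries and 8.83 and 4.99 CPM in the controls. Elfn2 followed at 0.204, with 45.1 and 19.4 CPM in the KO libraries and 5.04 and 3.43 CPM in the controls. Slc16a10, an aromatic amino acid transporter gene, came after it at 0.311, with 102.6 and 76.4 CPM in the KO libraries and 19.2 and 11.1 CPM in the controls. Myo7a, an unconventional myosin gene known from hair cells of the inner ear, and Spef2, a sperm flagellum gene, came next at 0.313 and 0.331. The other network genes compared lay between 1.46 (Max) and 2.04 (Mxd3). With 4 libraries in 2 genotypes such likeness mostly ranks genes by the size of their difference between genotypes, and it is given with no test.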
